A study of Mus musculus with 28 samples.

Results

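A set of 10 genes that are read as transcripts of ERK signalling were followed through mIMCD-3 cells, a mouse kidney epithelial line of inner medullary collecting duct origin. They are the dual-specificity phosphatases Dusp4, Dusp5 and Dusp6, the Sprouty genes Spry1, Spry2 and Spry4, the Sprouty-related gene Spred1, the ETS factors Etv4 and Etv5, and Phlda1. The genes were chosen by symbol for their known role, with earlier results of these data known. All 10 were matched to 1 row each among the 45706 genes of the tables, and all 10 had a value above 0 in each of the 28 libraries.

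ERK is the last kinase of a cascade that runs from receptor tyrosine kinases through Ras, Raf and MEK. Active ERK enters the nucleus and, through ETS and AP-1 factors, raises the transcription of genes that include its own inhibitors. The Dusp products remove the activating phosphates from ERK and its relatives, while Sprouty and Spred proteins act further up, at the level of receptors, Ras and Raf. Etv4 and Etv5 encode factors that carry the signal on to other promoters, and growth factors of the kind that shape kidney tubules are classical inducers of both. The level of these transcripts therefore follows both the signal and its brakes, and is not itself a measure of ERK phosphorylation.

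RNA was sequenced from 7 groups of 4 libraries: polyclonal WT cells, monoclonal WT5 and subclones 1 to 5. No group was treated or edited, and all were grown in DMEM:F12 with serum, harvested with trypsin and used for RNA isolation 4 days after confluency. WT5 is 1 clone, grown from a single sorted cell, and each subclone is again 1 clone, sorted from WT5. Libraries of one group are called biological replicates in the methods and technical replicates in a legend, so the p-values below measure the spread between these libraries, which may be technical. Polyclonal cells were sequenced with shorter single-end reads and WT5 with longer paired-end reads at another time, so that line and sequencing batch cannot be told apart. Subclones come from a separate table, and per the paper they were expanded for some weeks after sorting before RNA was isolated. A difference from WT5 or polyclonal cells shared by all subclones therefore cannot be told apart from the table or from this time in culture. Values are TPM, each library's transcripts scaled to one total, which are scaled for transcript length and keep no sequencing depth. Between 16270 and 19272 genes had a value above 0 per library, with 18681 or more in polyclonal libraries and 17004 or fewer in all others.

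The cells carried epithelial transcripts throughout. Of 18 epithelial and collecting duct markers, 10 to 13 per group had a mean of at least 1 TPM. Their summed level lay between 1900 and 2200 TPM in polyclonal libraries, between 3330 and 3420 TPM in WT5 and between 2110 and 2660 TPM in the subclones. Aqp2, the water channel of principal cells, and Calb1 were at 0 in all libraries. None of 8 fibroblast or 8 endothelial markers reached a mean of 1 TPM in any group, and the sums of these lists stayed at or below 2.15 and 0.39 TPM. Of 8 leukocyte markers, Csf1r and Cd68 passed 1 TPM, with list sums of 12.6 to 14.3 TPM in polyclonal cells, 38.7 to 44.9 TPM in WT5 and 28.4 to 55.6 TPM in the subclones, whereas Adgre1, Cd3e and Lyz2 were at 0 in all libraries. Proximal tubule and loop markers summed to 5.21 to 6.03, 7.61 to 9.06 and 7.56 to 23.9 TPM in the same order. The part of these shifts in the results below was not tested.

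Promoter sequences from RefSeq on GRCm38.p6 were matched for 6 of the 10 genes. The 250 bases upstream of the start are shown for Dusp6 and Dusp5, the phosphatase genes among the 10 with the largest difference between WT5 and polyclonal cells, and for Spry2, the gene that differed in the opposite direction. Capitals mark GGAA on either strand (written TTCC on the other), the core bound by ETS factors, and the CArG box, the site of serum response factor. The regions are chr10:99262981-99263230 on the plus strand for Dusp6, chr19:53528895-53529108 on the plus strand for Dusp5 and chr14:105896820-105897069 on the minus strand for Spry2. For Dusp5 the last 36 of the 250 bases are left out, as GENCODE places them inside the gene, and 214 are printed.
Dusp6: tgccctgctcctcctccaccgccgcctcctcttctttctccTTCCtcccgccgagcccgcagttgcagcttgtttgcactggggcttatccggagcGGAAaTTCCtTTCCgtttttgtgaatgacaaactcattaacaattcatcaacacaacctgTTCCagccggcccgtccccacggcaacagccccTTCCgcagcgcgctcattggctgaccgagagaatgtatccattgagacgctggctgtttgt
Dusp5: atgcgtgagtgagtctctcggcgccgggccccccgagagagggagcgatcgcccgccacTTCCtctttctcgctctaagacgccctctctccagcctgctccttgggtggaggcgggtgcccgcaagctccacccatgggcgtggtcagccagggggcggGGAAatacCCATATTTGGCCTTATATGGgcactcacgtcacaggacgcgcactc
Spry2: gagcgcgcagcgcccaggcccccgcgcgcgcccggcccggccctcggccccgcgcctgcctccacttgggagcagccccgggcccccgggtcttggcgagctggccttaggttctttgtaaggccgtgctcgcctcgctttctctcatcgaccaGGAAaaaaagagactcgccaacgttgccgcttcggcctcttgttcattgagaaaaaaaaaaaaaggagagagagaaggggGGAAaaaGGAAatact
The Dusp6 window held 6 GGAA matches, and the windows of Dusp5 and Spry2 held 3 each (1 of those of Dusp5 in the bases left out), against a mean of 2.91 over 32851 promoter windows of that length. As 93.4% of all windows held at least 1 such match, its presence sets none of these genes apart. The Dusp5 window alone among those of the members held CArG boxes, 2 of them end to end from 82 to 63 bases upstream of the RefSeq start, while 1.47% of all windows held 1 or more. It also held TGACGT, the start of the cAMP response element, from 56 to 51 bases upstream (6.47% of all windows, either strand). CCGGAA and the AP-1 site TGANTCA were searched on both strands too and were in none of the members' windows, against 12.0% and 6.75% of all windows. CCGGAA contains GGAA, and no other pair of these motifs overlapped by definition. These are matches of letters only, and no binding was measured.

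WT5 had far more transcript of 3 of the 10 genes than polyclonal WT cells: the ERK phosphatase genes Dusp6 and Dusp5 and the ETS factor gene Etv4. Of the others, 4 were higher by smaller steps (Dusp4, Spry1, Spry4 and Spred1), 1 was lower (Spry2), and 2 did not pass the test (Etv5 and Phlda1). A gene was called by the rule of the study where its adjusted p-value was under 0.01 and its z-score differed by more than 1, the log2(TPM) of a gene scaled by the mean and SD of its library, which here equals 8.56-fold. All 3 genes called in this way were higher in WT5, against 2.31% of 13723 genes tested that were called higher and 3.12% called lower. The test here was limma, in place of the unequal-variance test of the methods. The study itself reported more genes higher than lower in WT5. At an adjusted p-value below 0.01 alone, 7 members were higher and 1 lower, against 34.5% and 30.9% of all genes. The median log2 difference of the 10 genes was 1.23, and that of all genes tested was 0.24. Fold changes, log2 differences and their standard errors below are from log2(TPM) as deposited, without z-scores. Adjusted p-values are from the fit on z-scores unless stated otherwise. Values relative to that median are given where they are set apart.

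Dusp6 (ENSMUSG00000019960, chr10:99263231-99267489), the phosphatase most selective for ERK, had 8.48, 10.06, 11.67 and 15.26 TPM in polyclonal replicates 1 to 4. In WT5 it had 208.53, 211.53, 207.49 and 183.1 TPM. The groups were far apart and did not overlap. The difference was 18.2-fold, or 15.4-fold relative to the median gene (log2 difference 4.19, standard error 0.17, adjusted p = 5.09e-07, limma with Benjamini-Hochberg adjustment, as for all adjusted p-values here unless another test is named).

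Dusp5 (ENSMUSG00000034765, chr19:53529109-53542431) encodes a nuclear phosphatase of ERK. Polyclonal libraries held 3.77, 5.22, 7.96 and 11.14 TPM of Dusp5, the widest relative spread of a phosphatase member in any group (46.3% of the mean), and WT5 libraries held 95.45, 91.7, 86.82 and 86.86 TPM. Here, too, the groups did not overlap, with a 13.9-fold difference (log2 difference 3.80, standard error 0.31, adjusted p = 2.04e-05). Dusp4 (ENSMUSG00000031530, chr8:34807297-34819894), another nuclear phosphatase of MAP kinases, was 3.30-fold higher. It had 4.56, 3.72, 4.86 and 4.37 TPM in polyclonal cells and 15.24, 14.23, 14.32 and 13.82 TPM in WT5 (log2 difference 1.72, standard error 0.08, adjusted p = 1.17e-06).

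The Sprouty genes went in both directions. Spry2 (ENSMUSG00000022114, chr14:105891947-105896819) had 14.82, 16.36, 16.66 and 19.13 TPM in polyclonal cells and 7.41, 9.34, 8.31 and 8.06 TPM in WT5. All WT5 libraries were thus below all polyclonal ones, at 0.495 of the polyclonal level (log2 difference -1.01, standard error 0.10, adjusted p = 9.87e-06). Spry1 (ENSMUSG00000037211, chr3:37639947-37644598), which acts on the same pathway and was the most abundant Sprouty member per length, moved the other way. Its 4 polyclonal libraries lay between 66.19 and 83.73 TPM and its WT5 libraries between 122.29 and 133.34 TPM, a 1.68-fold difference (adjusted p = 0.000362) that was 1.42-fold relative to the median gene. Spry4 (ENSMUSG00000024427) was scarce in both lines. Polyclonal libraries had 0.06, 0.07, 0.06 and 0.09 TPM and WT5 libraries 0.34, 0.41, 0.31 and 0.41 TPM, a 5.29-fold difference (adjusted p = 8.21e-06) at levels where the tables' steps of 0.01 TPM are coarse. Spred1 (ENSMUSG00000027351, chr2:117121374-117182279), an inhibitor that recruits neurofibromin to Ras, rose from between 13.22 and 14.78 TPM to between 20.68 and 22.96 TPM, 1.58-fold (adjusted p = 0.000103).

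The ETS factor genes separated. Etv4 (ENSMUSG00000017724, chr11:101769742-101785371) had 0.11, 0.1, 0.43 and 0.28 TPM in polyclonal cells and 4.02, 4.4, 3.69 and 2.57 TPM in WT5. Every WT5 library was above every polyclonal one, with an 18.9-fold difference on the log2 scale without a pseudocount (log2 difference 4.24, standard error 0.48, adjusted p = 0.000128). With a pseudocount of 1 TPM its z-score difference fell from 1.28 to 0.731, under the size threshold of the study. Etv5 (ENSMUSG00000013089, chr16:22381309-22439719) stayed below 1 TPM in both lines, with 0.99, 0.71, 0.62 and 0.63 TPM in polyclonal cells and 0.84, 0.54, 0.71 and 0.68 TPM in WT5. These ranges overlapped, and the difference did not pass the test (z-score difference -0.111, adjusted p = 0.149). Of the 50-base stretches of the longest Etv5 transcript, 26.8% also occur in the processed pseudogene Gm4798. Reads of the pseudogene and of Etv5 may thus not be told apart, and the Etv5 values are uncertain. Gm4798 was not found by that name among the genes with values, so that no sharing of reads was shown. The other 9 members shared no such stretch with another gene.

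Phlda1 (ENSMUSG00000020205, chr10:111506286-111508645) encodes a pleckstrin homology-like protein that is induced by growth factors. It had 28.46, 34.47, 34.65 and 36.72 TPM in polyclonal cells and 34.83, 35.19, 36.35 and 37.93 TPM in WT5, with overlapping ranges and no call (adjusted p = 0.292). A non-coding gene on the other strand, Gm28592 (chr10:111506575-111507662), lies within it. Gm28592 had 17.42, 22.38, 11.65 and 11.16 TPM in WT5 and between 0.27 and 2.08 TPM in polyclonal cells, and was listed at 0 in all 20 subclone libraries. Among 11667 genes with at least 1 TPM in every WT5 library it was the 1 gene listed at 0 in all of the subclones. As the strand setting of the counting is not given in the sources used here, reads of Phlda1 and Gm28592 cannot be told apart, and Phlda1 differences that involve WT5 are uncertain. Spry1 also overlaps a non-coding gene on the other strand, Gm42922, which stayed between 0.42 and 2.66 TPM, and Dusp5 overlaps AC137853.2, which was not analysed here.

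**Figure D1:**
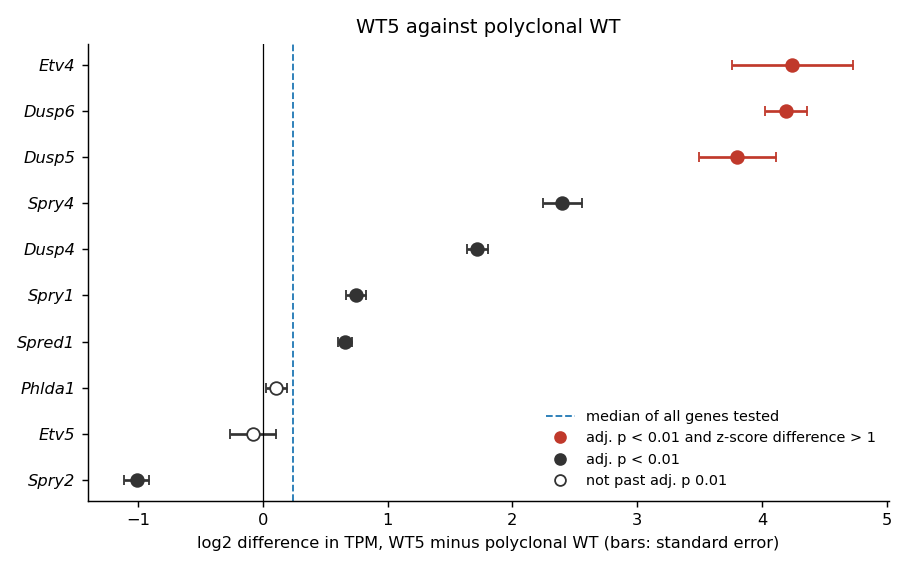
Log2 difference in TPM between monoclonal WT5 and polyclonal WT cells for the 10 genes (points, 4 libraries against 4; bars are standard errors). Red points mark the 3 genes past both thresholds, filled dark points those past an adjusted p of 0.01 alone and open points the 2 that are not, and the dashed line is the median of all genes tested, 0.24. Etv4, Dusp6 and Dusp5 lie at 3.80 or more and Spry2 at -1.01.

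The subclones kept apart from polyclonal cells for most members. In 6 genes (Dusp4, Dusp5, Dusp6, Spry4, Spred1 and Etv4) all 20 subclone libraries lay above all 4 polyclonal libraries, and in Spry2 all lay below, while Spry1, Etv5 and Phlda1 overlapped. Over the 13272 genes above 0 in all libraries, 30.1% lay above and 17.8% below in this way. Dusp6 ranged from 59.4 to 186 TPM over the subclone libraries with a median of 96.0, against a polyclonal maximum of 15.26 TPM. Dusp5 ranged from 32.6 to 106 TPM (median 43.1) and Etv4 from 0.75 to 3.05 TPM (median 1.52). Spry2 ranged from 6.05 to 11.4 TPM, where the lowest polyclonal library had 14.82 TPM. No test of the subclones against polyclonal cells was run.

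**Figure D2:**
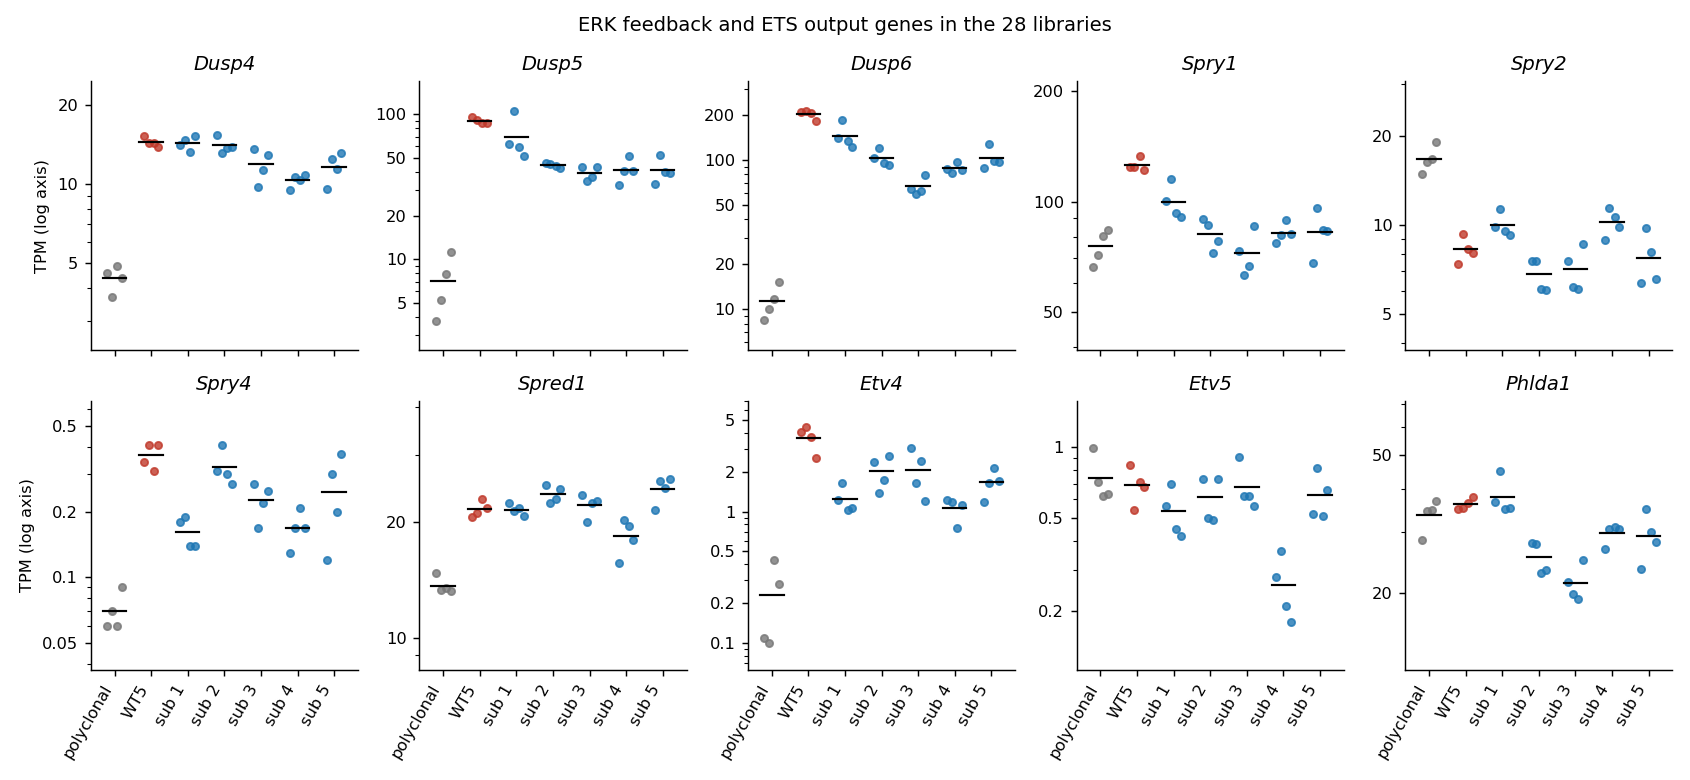
TPM of the 10 genes in each library on log axes (points; black lines are group means; 4 libraries each of polyclonal WT, WT5 and subclones 1 to 5). WT5 and the subclones stand above polyclonal cells for Dusp4, Dusp5, Dusp6, Spry4, Spred1 and Etv4 and below for Spry2, and subclone 4 stands lowest for Etv5.

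When each subclone was compared with WT5, Dusp5 and Dusp6 were lower in 4 of the 5 subclones, Etv4 in 3 and Dusp4 in 1, at an adjusted p-value below 0.01. No member was called by the rule of the study in any subclone, where a z-score of 1 equals 7.94-fold. That rule called 0.152%, 0.144%, 0.173%, 0.202% and 0.173% of 13860 genes in subclones 1 to 5. At an adjusted p-value below 0.01 alone, subclone 1 had 2 members lower (Spry4 and Etv4) and none higher, against 13.6% and 12.7% of all genes. Subclone 2 had 4 lower (Dusp5, Dusp6, Spry1 and Phlda1) and 1 higher (Spred1), against 12.6% and 13.4%. Subclone 3 had 5 lower (Dusp5, Dusp6, Spry1, Spry4 and Phlda1), against 10.9%, and none higher, against 8.65%. Subclone 4 had 7 lower (all but Spry2, Spred1 and Phlda1) and none higher, against 19.2% and 18.2%. Subclone 5 had 4 lower (Dusp5, Dusp6, Spry1 and Etv4) and 1 higher (Spred1), against 11.7% and 10.2%. The 5 comparisons share the same 4 WT5 libraries, so that agreement between them is no separate evidence. Median log2 differences of the members in subclones 1 to 5 were -0.37, -0.40, -0.73, -0.87 and -0.47, where those of all genes lay between -0.10 and -0.04.

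Dusp6, with 203 ± 13.2 TPM in WT5 (SD, n = 4), showed the steps most clearly. Subclone 1 libraries had 140.22, 186.26, 133.61 and 122.74 TPM, subclone 2 libraries 102.89, 119.42, 95.56 and 92.64 TPM, and subclone 3 libraries 64.07, 59.42, 62.37 and 79.88 TPM. Subclone 4 libraries had 87.49, 81.2, 97.32 and 86.21 TPM and subclone 5 libraries 88.28, 127.82, 98.14 and 96.43 TPM. Only replicate 2 of subclone 1 reached the WT5 range. Relative to WT5 the level was 0.711, 0.505, 0.326, 0.434 and 0.502 in subclones 1 to 5, and it passed the test in subclones 2 to 5 (adjusted p between 3.59e-05 and 0.00114) and not in subclone 1 (adjusted p = 0.0423). In the same order, Dusp5 stood at 0.743, 0.492, 0.436, 0.454 and 0.450 of WT5, and it also passed in subclones 2 to 5. Without replicate 2 of subclone 1, which had the highest value of its group in 8 of the 10 genes, the members past the test in subclone 1 rose from 2 to 5, with Dusp5, Dusp6 and Spry1 added (adjusted p = 0.00396, 0.00384 and 0.0042).

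Etv4 fell from 3.67 ± 0.789 TPM in WT5 to 1.24 ± 0.291, 1.07 ± 0.218 and 1.69 ± 0.401 TPM in subclones 1, 4 and 5 (SD, n = 4; adjusted p = 0.00104, 0.000286 and 0.00406), the last of which was lost when WT5 replicate 1, 2 or 3 or subclone 5 replicate 2 or 4 was left out (adjusted p between 0.0121 and 0.0138). It had 2.04 ± 0.576 and 2.09 ± 0.822 TPM in subclones 2 and 3, without a call (adjusted p = 0.019 and 0.0581). Etv5 passed the test in subclone 4, at 0.363 of the WT5 level (adjusted p = 0.00113), and not in the other 4 subclones (adjusted p between 0.115 and 0.551). Spred1 was slightly higher in subclones 2 and 5, by 1.09-fold and 1.13-fold (adjusted p = 0.00521 and 0.00217), and neither call held on log2(TPM) without z-scores (adjusted p = 0.0984 and 0.119). The call in subclone 2 was also lost without any one library of the pair except WT5 replicate 3 (adjusted p between 0.0104 and 0.0182). Spry1 was at 0.646, 0.568, 0.650 and 0.651 of WT5 in subclones 2 to 5 (adjusted p between 0.000219 and 0.00284), and its call in subclone 5 was lost without WT5 replicate 1 or 3 or subclone 5 replicate 3 (adjusted p between 0.0103 and 0.0109). Spry2 did not pass the test in any subclone (adjusted p between 0.0215 and 0.709). Phlda1, with the limit given above, was lower in subclones 2 and 3, at 0.703 and 0.590 of WT5 (adjusted p = 0.00442 and 0.000327), and the call in subclone 2 was lost without any one of WT5 replicates 1 to 4 or subclone 2 replicates 3 and 4 (adjusted p between 0.0119 and 0.0151).

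The unequal-variance test of the methods, which does not share the spread between genes, ended several of these calls. They were those of Dusp6, Spry1, Spred1 and Phlda1 in subclone 2 (adjusted p between 0.01 and 0.0343), Spry1 and Spry4 in subclone 3 (0.0137 and 0.0128), Dusp5 in subclone 4 (0.0107), and Dusp5, Dusp6, Spry1 and Etv4 in subclone 5 (0.0118 to 0.0249).

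**Figure D3:**
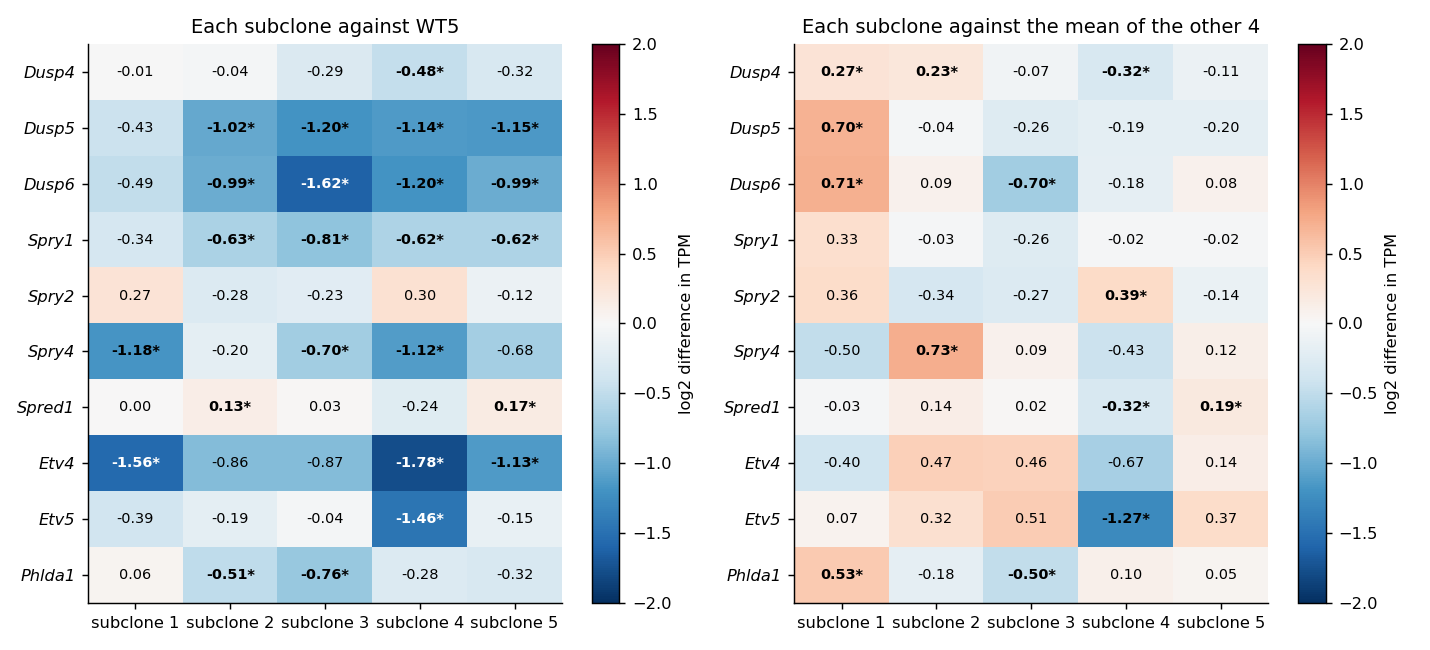
Log2 difference in TPM of the 10 genes (rows) for each subclone against WT5 (left) and against the mean of the other 4 subclones (right), 4 libraries per group. Colour and number give the difference and an asterisk marks an adjusted p below 0.01 on z-scores. On the left Dusp5 and Dusp6 are marked in subclones 2 to 5, and on the right subclone 4 carries the largest difference, -1.27 for Etv5.

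Within the subclones alone, where all values come from one table, 7 of the 10 genes differed among the 5 subclones by the F test at an adjusted p-value below 0.01, against 24.6% of 14031 genes. These were Dusp4, Dusp6, Spry2, Spry4, Spred1, Etv5 and Phlda1, and Dusp5, Spry1 and Etv4 did not pass (adjusted p = 0.0174, 0.0357 and 0.0303). The call for Spry4 (adjusted p = 0.00749) was lost without any one of 13 of the 20 libraries (adjusted p between 0.01 and 0.0244), and held without subclone 1 replicate 1 or 2, subclone 2 replicate 4, subclone 3 replicate 2, subclone 4 replicate 3 or subclone 5 replicate 1 or 4. Leaving out subclone 1 replicate 4 brought Dusp5 past the threshold (adjusted p = 0.00678), and leaving out subclone 3 replicate 4 did so for Etv4 (adjusted p = 0.00227). The ratio of the highest to the lowest subclone mean was 2.62 for Etv5, 2.20 for Dusp6, 1.98 for Spry4 and 1.95 for Etv4, and between 1.33 and 1.77 for the other 6.

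Subclone 1 had the most phosphatase transcript. Against the mean of the other 4 subclones, Dusp6 was 1.63-fold, Dusp5 1.62-fold, Phlda1 1.45-fold and Dusp4 1.21-fold higher (adjusted p = 0.000727, 0.00659, 0.000591 and 0.00154), while 4.36% of all genes were called in either direction. Without replicate 2 of subclone 1, 2 of these 4 remained past the threshold, and Dusp4 (adjusted p = 0.0104) and Dusp5 (adjusted p = 0.0275) did not. The call of Dusp4 also ended without replicate 4 of subclone 1 (adjusted p = 0.0113) and on log2(TPM) without z-scores (adjusted p = 0.0593). The call of Dusp5 ended without any one of 11 of the 20 libraries (adjusted p between 0.0101 and 0.0275), which were subclone 1 replicates 1, 2 and 3, subclone 2 replicates 3 and 4, subclone 3 replicate 3, subclone 4 replicates 2 and 4 and subclone 5 replicates 1, 3 and 4. Replicate 2 had 105.87 TPM of Dusp5, where the other 3 libraries of subclone 1 had 62.14, 59.05 and 51.72 TPM.

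Subclone 3 stood at the other end for Dusp6 and Phlda1, at 0.617 and 0.707 of the mean of the others (adjusted p = 0.000394 and 0.000509), with 4.85% of all genes called. Dusp5 and Dusp4 were not called there (adjusted p = 0.408 and 0.513). The Dusp6 libraries of subclone 3, 59.42 to 79.88 TPM, were all below those of the next subclone, 81.2 to 97.32 TPM in subclone 4. Etv4 and Etv5 did not follow: subclone 3 had the highest mean of both, 2.09 ± 0.822 and 0.677 ± 0.158 TPM, without a call (adjusted p = 0.315 and 0.154).

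Subclone 4 combined low Etv5, Spred1 and Dusp4 with high Spry2. Etv5 had 0.28, 0.36, 0.21 and 0.18 TPM there, below every library of the other subclones, at 0.415 of their mean (log2 difference -1.27, standard error 0.19, adjusted p = 2.27e-05). Spred1 had 15.71, 20.3, 19.61 and 18.01 TPM (0.800 of the others, adjusted p = 2.9e-05) and Dusp4 9.49, 10.58, 10.32 and 10.81 TPM (0.803, adjusted p = 1.31e-05). Spry2, at 10.2 ± 1.07 TPM (SD, n = 4), was 1.31-fold higher (adjusted p = 0.00751), a call that ended without any one of 11 of the 20 libraries (adjusted p between 0.0106 and 0.0411): subclone 1 replicates 1, 3 and 4, subclone 2 replicates 3 and 4, subclone 3 replicates 1 and 3, subclone 4 replicates 2, 3 and 4 and subclone 5 replicate 1. Spry2 was nearly as high in subclone 1, at 10.0 ± 0.942 TPM, 1.28-fold above the others of that subclone without a call (adjusted p = 0.0325). Of all genes, 18.4% were called in subclone 4. Etv4 reached an adjusted p of 0.0182 there, and of 0.00218 without replicate 4 of subclone 3.

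In subclone 2, Dusp4 and Spry4 were higher than in the others, by 1.18-fold and 1.65-fold (adjusted p = 0.00209 and 0.00942), against 5.95% of all genes called. The call of Dusp4 was lost without replicate 1 of subclone 2 (adjusted p = 0.0184) and on log2(TPM) without z-scores (adjusted p = 0.115), and the call of Spry4 without any one of 16 of the 20 libraries (adjusted p between 0.0107 and 0.0542), those other than subclone 4 replicate 3 and subclone 5 replicates 1, 2 and 4. In subclone 5, Spred1 was 1.14-fold higher, with 21.56, 25.61, 24.56 and 25.92 TPM (adjusted p = 0.00151; 0.0435 on log2(TPM) without z-scores), against 14.5% of all genes called. Replicate 1 of subclone 5 had the lowest value of its group in 9 of the 10 genes.

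Ordered by group mean, neighbours mostly overlapped. Only neighbours in this order were compared, so a gap between neighbours does not exclude overlap with groups further along. Dusp6 fell from WT5 over subclones 1, 2, 5, 4 and 3 to polyclonal cells. Ranges of its neighbours were separate from subclone 1 to 2, from 4 to 3 and from 3 to polyclonal cells. Subclone 5 still reached 127.82 TPM of Dusp6, above the lowest library of subclone 1 (122.74 TPM). Dusp5 followed the order WT5, subclones 1, 2, 4, 5 and 3, polyclonal cells. Its neighbours were separate only from subclone 1 to 2 and before polyclonal cells. Subclone 5 reached 52.34 TPM of Dusp5, above the lowest library of subclone 1 (51.72 TPM). Dusp4, Spry4 and Etv4 had a single gap, before polyclonal cells at the low end, and Spry2 had its single gap after polyclonal cells at the high end. Spred1 had gaps between the neighbours subclones 1 and 4 and between subclone 4 and polyclonal cells. The lowest Spred1 library of subclone 3 (19.98 TPM) was nevertheless below the highest of subclone 4 (20.3 TPM). Spry1 had one gap, between WT5 and subclone 1, Etv5 one, between subclones 1 and 4, and Phlda1 none.

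The genes differed in how closely they varied with Dusp6. Over the 20 subclone libraries, log2(TPM) of Dusp6 correlated with that of Spry1 (Pearson r = 0.893), Phlda1 (0.886) and Dusp5 (0.817), less with Spry2 (0.531) and Dusp4 (0.529), and hardly with Spred1 (0.146), Etv5 (0.0378), Spry4 (0.000768) and Etv4 (-0.300). The closest pair was Spry1 and Phlda1 (r = 0.928), and the farthest was Spry2 and Etv4 (r = -0.578). Etv4 and Etv5 correlated with each other (0.738), as did Etv5 and Spred1 (0.770). After the mean of each group was taken out over all 28 libraries, Dusp6 still correlated with Dusp5 (0.884), Spry1 (0.849), Phlda1 (0.784) and Spry2 (0.734). Its correlation with Spry4 was then 0.544, with Etv4 0.293 and with Dusp4 0.262, so that the order of these genes changed with the libraries and scale used, and those with Spred1 and Etv5 were -0.00338 and -0.0402. The correlation of Etv4 with Etv5 was 0.161. Over all 28 libraries, which are dominated by the gap between polyclonal cells and the rest, Dusp5 and Dusp6 reached 0.981 and Spry2 and Spred1 -0.791. These are descriptions without a test, as the libraries of a subclone share a clone and TPM shares a total within each library.

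**Figure D4:**
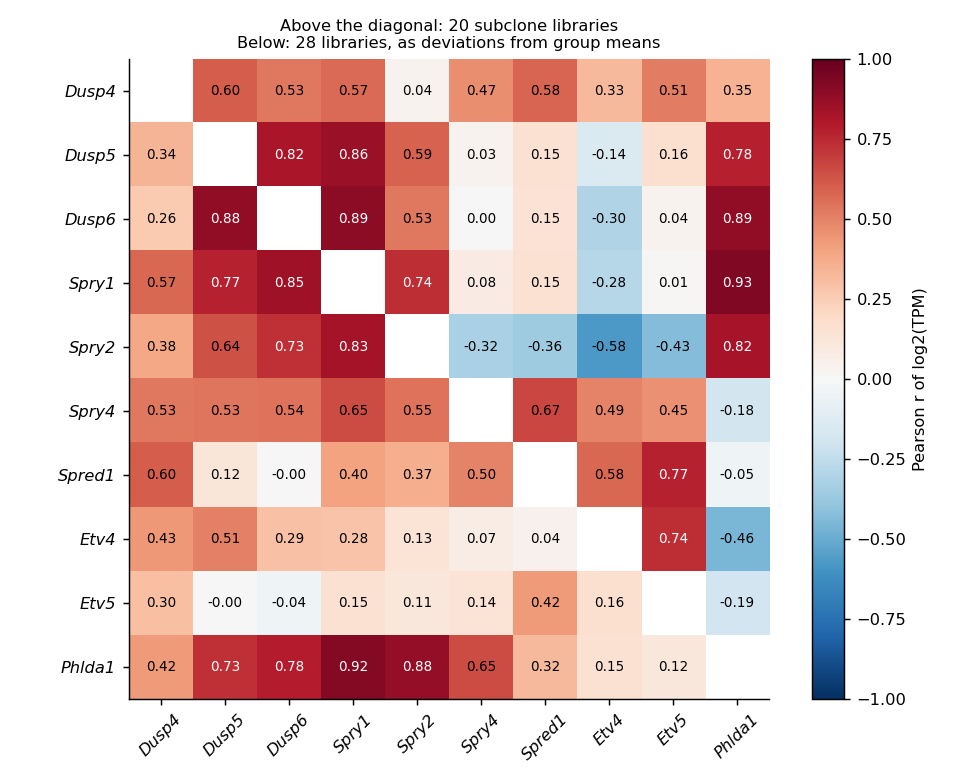
Pearson correlation of log2(TPM) between members, above the diagonal over the 20 subclone libraries and below it over 28 libraries as deviations from their group means. Dusp5, Dusp6, Spry1 and Phlda1 form a block with r of 0.728 or more on both sides, and the correlation of 0.738 between Etv4 and Etv5 above the diagonal is 0.161 below it.

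Among 11980 other genes with a mean of at least 1 TPM over the subclones, the 3 whose log2(TPM) was most like that of Dusp6 were Dusp1 (r = 0.958), a phosphatase of stress-activated and other MAP kinases, Hbegf (0.939), an EGF receptor ligand, and Jun (0.904), a subunit of AP-1. Hbegf had 40.2 ± 6.27 TPM in polyclonal cells and 184 ± 6.33 TPM in WT5, and its subclone means ran from 139 ± 19.4 TPM in subclone 1 to 81.8 ± 6.83 TPM in subclone 3 (SD, n = 4). For Dusp1 they ran from 77.1 ± 10.6 to 27.8 ± 6.1 TPM in the same subclones. All 3 genes were picked for their likeness to Dusp6 over these libraries, so a like order of the subclones follows from the choice. Unlike those of Dusp6, all 5 subclone means of Dusp1 lay below the polyclonal mean of 87.9 ± 28.4 TPM as well as below the 151 ± 12.3 TPM of WT5, and the ranges of subclones 3 and 4 lay below the lowest polyclonal library (54.78 TPM). Jun was likewise highest in subclone 1 (108 ± 12.2 TPM) and lowest in subclone 3 (54.7 ± 9.76 TPM).

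Other genes of the pathway were examined as lists in the comparison of WT5 with polyclonal cells, at an adjusted p-value below 0.01. Their counts and medians stand against 34.5% of all genes higher, 30.9% lower and a median log2 difference of 0.24. Receptor tyrosine kinase genes were higher in 6 of the 10 tested and lower in none, with 10 of the 20 not tested because of a 0 and a median log2 difference of 0.76. Met, the receptor of hepatocyte growth factor, rose 3.11-fold, Egfr 2.79-fold and Igf1r 2.77-fold (adjusted p = 4.6e-07, 1.57e-06 and 9.65e-07). Of 30 genes of the Ras to ERK cascade, 13 were higher and 6 lower, with a median log2 difference of 0.33, near that of all genes. Ksr1, a scaffold of Raf, MEK and ERK, rose 14.6-fold from 0.465 ± 0.11 to 6.67 ± 0.36 TPM, Rps6ka2, an ERK-activated kinase, 5.22-fold, and Ptpn11, the phosphatase that links receptors to Ras, 2.85-fold (adjusted p = 3.17e-07, 1.58e-06 and 2.54e-07).

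Among 7 other MAP kinase phosphatases, 4 were higher and 1 lower, with a median log2 difference of 1.04. Dusp2 rose 15.1-fold, from 3.47 ± 0.819 to 51.0 ± 2.77 TPM, and Dusp8 5.74-fold, whereas Dusp9 fell from 2.63 ± 0.131 to 0.133 ± 0.0624 TPM (SD, n = 4; adjusted p = 9.21e-07, 2.68e-06 and 9.01e-06). Of 13 other feedback inhibitors, 8 were higher and 2 lower (median log2 difference 0.80), led by the ubiquitin ligase gene Cbl (8.58-fold), Il17rd (4.98-fold), which encodes the inhibitor Sef, and Spred3 (3.25-fold), with adjusted p of 1.25e-07, 2.66e-06 and 5.29e-06. Of 27 other ERK readouts, 19 were higher and 3 lower, with a median log2 difference of 1.27, close to the 1.23 of the members. Klf4, a zinc finger factor, rose 24.7-fold, from 0.158 ± 0.0435 to 3.81 ± 0.455 TPM (SD, n = 4; adjusted p = 7.38e-07). That fold rests on a polyclonal level well under 1 TPM. Plaur, the urokinase receptor, rose 5.96-fold, and Maff, a small Maf protein, 5.20-fold (adjusted p = 1.07e-07 and 6.53e-07). Epha2 and Epha4, ephrin receptor genes, were 2.99-fold and 1.91-fold higher (adjusted p = 2.12e-06 and 0.000534), and Ccnd1, the gene of cyclin D1, had 0.745 ± 0.185 and 0.63 ± 0.0757 TPM without a call (adjusted p = 0.0404). The 14 other ETS factors tested were balanced, with 4 higher and 4 lower and a median log2 difference of 0.09. Erf, an ETS repressor controlled by ERK, rose 3.27-fold, and the epithelial factors Ehf and Elf3 fell to 0.252 and 0.641 of the polyclonal level (adjusted p = 1.42e-06, 6e-08 and 5.58e-07).

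**Figure D5:**
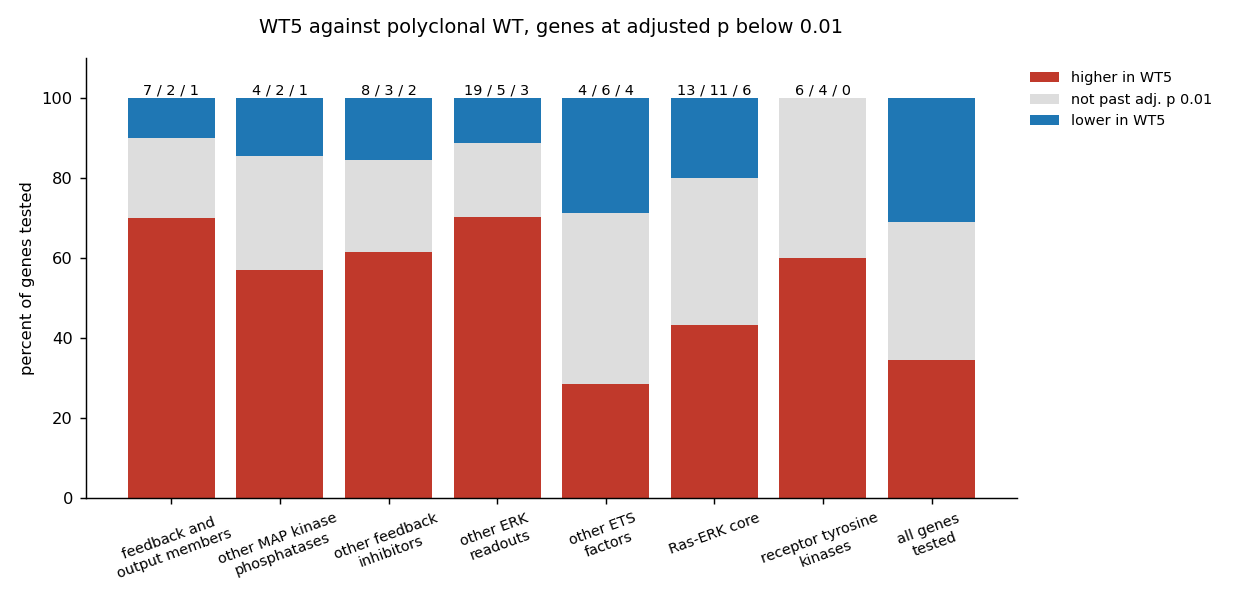
Percent of the genes tested in each list that were higher (red), lower (blue) or not past an adjusted p of 0.01 (grey) in WT5 against polyclonal WT cells, with the counts higher, not past and lower above each bar. The share higher lies above the 34.5% of all genes tested in every list but the other ETS factors. The members had 7 higher and 1 lower, and the other ERK readouts 19 higher and 3 lower.

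In the subclones these readouts split. Of 28 other readouts, 21 differed among the 5 subclones by the F test, against 24.6% of all genes. Subclone 1 had 12 higher and 1 lower than the other subclones, against 4.36% of all genes in either direction. Subclone 3 had none higher and 11 lower, against 4.85%, and subclone 4 had 7 higher and 3 lower, against 18.4%. Fos, the immediate early partner of Jun, had 387 ± 73.4 TPM in subclone 1 and 395 ± 73.0 TPM in subclone 4, against 88.0 ± 41.1 to 143 ± 49.7 TPM in the others. Dusp6 shared the high level of subclone 1 but had 88.1 ± 6.75 TPM in subclone 4 (SD, n = 4). Egr1, unlike Fos, was highest in subclone 1 alone (805 ± 97.9 TPM) and lowest in subclone 3 (406 ± 94.1 TPM). It had 601 ± 84.2 TPM in subclone 4 and 636 ± 142 TPM in subclone 5. Fos and Egr1 were named after their values were seen. Ccnd1 was higher in subclone 5 than in the other subclones (3.47-fold, adjusted p = 1.38e-05), a subclone in which 1 of the 10 members was called.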

How the data were processed

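RNA sequencing was performed on 28 libraries, and the authors deposited gene values as TPM in 2 tables, one of polyclonal WT and WT5 libraries and one of subclones. Per the labels and methods, reads were demultiplexed with CASAVA 1.8, aligned to GRCm38 with STAR 2.7.3a and quantified with RSEM 1.3.1. TPM keeps no depth, so that no counting error can be given. Tables were joined by gene identifier.

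Values of log2(TPM), with no pseudocount, were turned into z-scores per library, using the genes above 0 in all libraries of a fit, and compared with limma 3.58.1 in R 4.3.3 (two-sided, Benjamini-Hochberg over all genes tested), in place of the unequal-variance test of the methods, since groups have 4 libraries. Scripts were tested on simulated data. The members and gene lists were chosen with earlier results of these data known. Named besides the members were Ccnd1, Epha2 and Epha4, the 3 genes with the largest z-score difference in each list among those at an adjusted p below 0.01 between WT5 and polyclonal WT, and the 3 genes most correlated with Dusp6. Coordinates are from GENCODE M21 and promoters from RefSeq, both GRCm38. Alternatives were other tests, pseudocounts of 0.1 and 1, filters, scalings and thresholds, the replicate number as a block, and each library left out in turn.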

Additional observations from a re-analysis of the deposited data

Results flagged for a closer look

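A single library stood apart from the other 3 of its group in 3 of the 70 gene and group combinations of the members, by the gap to its neighbour relative to the group's range, where chance alone gives about 1 in 20. These were Dusp6 in WT5 replicate 4, the lowest at 183.1 TPM, Spred1 in polyclonal WT replicate 1, the highest at 14.78 TPM, and Phlda1 in subclone 4 replicate 1, the lowest at 26.72 TPM.

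Differences of the subclones from a common reference were themselves different between subclones for 7 members by the F test over the 20 subclone libraries. Its adjusted p from limma was 1.26e-05 for Dusp4, 0.000128 for Dusp6, 0.00151 for Spry2, 0.00749 for Spry4, 9.23e-05 for Spred1, 0.000276 for Etv5 and 0.000104 for Phlda1.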

How the results depend on the processing

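Between WT5 and polyclonal WT cells, 3 members by the rule of the study and 8 at an adjusted p below 0.01 were called whichever library was left out. On log2(TPM) without z-scores, with a size threshold of 1, the rule of the study called 6 members there, 12 pairs of a member and a subclone against WT5, where z-scores called 0, and 1 pair against the other subclones. That threshold is a smaller difference by construction. On that scale no member passed in subclones 2 and 5 against the others (0 each).

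Against WT5 at an adjusted p below 0.01, subclone 1 had 1 member among genes with a mean of at least 1 TPM, a filter that removes Spry4, and 5 at an adjusted p below 0.05. The unequal-variance test gave 1, 3 and 1 members in subclones 2, 3 and 5. Subclone 2 against the others gave 1 with a pseudocount of 1, 1 with the filter on mean TPM and 0 when a value above 0 in any library was enough. Apart from the filter, the cause was not tested. With each library left out in turn, the counts against WT5 ran from 2 to 5, 3 to 4, 5 to 5, 7 to 8 and 3 to 5 in subclones 1 to 5. Subclone 5 fell to 3 without WT5 replicate 1 or 3, and subclone 2 to 3 without WT5 replicate 1, 2 or 4 or its own replicate 3 or 4. Against the other subclones they ran from 2 to 4, 0 to 2, 2 to 2, 3 to 5 and 1 to 1, and in the F test from 6 to 7.

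Replicate numbers did not pair libraries: deviations of same-numbered WT5 and polyclonal libraries correlated with r between -0.0114 and 0.0135 across genes, and in no pair of groups did all 4 pairs exceed 0.1. With the replicate number as a block, 3 and 8 members were called in WT5 against polyclonal cells, 2, 2, 3, 8 and 2 in subclones 1 to 5 against WT5, 1 in subclone 2 against the others and 6 in the F test.

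Directions turned only for differences that did not pass the test. Between WT5 and polyclonal cells, Etv5 (0.0669) and Phlda1 (0.0199) turned when genes above 0 in any library were tested, and Phlda1 (0.109) on log2 without z-scores. On log2 without z-scores, Dusp4 (-0.0149) and Spred1 (-0.00448) turned in subclone 1 against WT5 and Spry1 (-0.0179) in subclone 5 against the others. Dusp4 in subclone 2 against WT5 turned with pseudocounts of 0.1 (7.4e-05) and 1 (0.00225), the mean TPM filter (0.00081) and the test of genes above 0 in any library (0.0025). At a pseudocount of 1, Etv5 in subclone 1 (-0.00184) and Spry4 in subclone 3 (-0.00173) turned against the others. Over single libraries left out, z-score differences from WT5 spanned 0 for Dusp4 in subclones 1 (-0.0046 to 0.0145) and 2 (-0.012 to 0.0103) and Spry2 in subclone 5 (-0.0526 to 0.0101). Those from the other subclones did so for Etv5 in subclone 1 (-0.00369 to 0.0833), Dusp5 (-0.0281 to 0.00052), Dusp6 (-0.00774 to 0.0435) and Spry1 (-0.0324 to 0.00216) in subclone 2, Spry4 in subclone 3 (-0.00718 to 0.0295), Spry1 in subclone 4 (-0.0177 to 0.0044), and Spry1 (-0.0155 to 0.0211), Spry2 (-0.0593 to 0.00146) and Spry4 (-0.00713 to 0.137) in subclone 5.

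With no depth in the tables, values under 1 TPM carry an unknown counting error. Among the members these include Spry4, Etv5 and Etv4 in polyclonal cells. Among other named genes, polyclonal means were under 1 TPM for Klf4, Ksr1, Dusp8, Il17rd, Rps6ka2 and Ccnd1. The WT5 means of Dusp9 and Ccnd1 were as well.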
